A study of Mus musculus with 5 samples.

Results

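Ccl17, Ccl22, Ccr4, Ccr7 and Ccr8 are 5 of the 32285 genes counted in single cells of Renca tumours, and they were taken by name: 2 chemokines, their shared receptor and 2 further receptors of T cells and dendritic cells. Chemokines are small secreted proteins that guide cells carrying the matching receptor. Ccl17 and Ccl22 both bind Ccr4, which is carried by regulatory T cells and by part of the helper T cells, and mature dendritic cells are a known source of both. Ccr7 answers to Ccl19 and Ccl21 and brings mature dendritic cells and naive T cells to the lymph node; Ccr8 binds Ccl1 and Ccl8 and is known from regulatory T cells inside tumours.

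Renca is a mouse renal cortical adenocarcinoma line, grown here under the skin of wild-type Balb/c mice. Each of 5 groups is 1 library pooled in equal parts from 3 mice: PBS (untreated), PD1+CTLA4, PD1+CD40, CD40+CTLA4, and Triplet, which received antibodies against PD-1, CD40 and CTLA-4 together. Each antibody was given at 200 µg into the peritoneum, 2 times from day 10 after tumour cell injection, and the mice were killed for tumour collection 24 h after the last of these. T cells, other immune cells and CD45-negative cells were sorted and recombined in fixed proportions. The shares of these fractions in the recombined cells were therefore set by the sort, and those of the classes within a fraction were not. With 1 pooled library per group, differences between treatments have no replicate check: they are given with 95% intervals that cover counting error only, and no test.

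After filtering and removal of called doublets, 4382 (PBS), 9999 (PD1+CTLA4), 16884 (PD1+CD40), 16389 (CD40+CTLA4) and 4729 (Triplet) cells were kept, with medians of 1422 to 13116 unique molecular identifiers (UMIs, counted RNA molecules) per cell. Clusters left unnamed held 19.9% to 25.2% of cells in PBS, PD1+CTLA4 and Triplet but 73.1% in PD1+CD40 and 69.2% in CD40+CTLA4. Shallow clusters were among them: a median under 2500 UMIs with a marker score under 2 left a cluster unnamed whatever its leading class. The score is the mean log2 ratio of its markers to the other clusters. In PD1+CD40 and CD40+CTLA4 the unnamed cells had medians of 1167 and 1429 UMIs, against 9262.5 and 10436.5 in named cells. In Triplet the median of unnamed cells was higher, at 17837 UMIs against 12052.5. The PBS library stood apart. Variable segments held 78.5% of its T cell receptor UMIs against 3.98% to 5.65% in the treated libraries, and its file header names another Cell Ranger version. Treatment and library preparation or processing therefore cannot be told apart in any comparison with PBS, and PBS values stand beside the others without a fold. Shared cell barcodes made up at most 0.49% of a library's cells. Clusters were built without the 5 genes.

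Mature dendritic-like cells were 1 cluster of 612 cells, led by Fscn1, which bundles actin in dendrites (2149 CPM over all libraries; CPM are the UMIs of a gene scaled to a common total for the summed cells), with Il4i1 at 719 CPM and Cacnb3 at 403 CPM. Of 18 mature dendritic markers, 17 reached 20 CPM. Of 14 monocyte and macrophage markers, 7 in PBS to 10 in PD1+CTLA4 and Triplet did so. Over all libraries the macrophage receptor Csf1r was at 29.6 CPM and the macrophage gene C1qa at 215 CPM. The cluster held 88 cells in PBS, 164 in PD1+CTLA4, 160 in PD1+CD40, 155 in CD40+CTLA4 and 45 in Triplet, with medians of 7805.5 to 10610 UMIs per cell.

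The 2 ligand genes lie close to each other on chromosome 8, on the same strand, with the chemokine gene Cx3cl1 between them in the RefSeq annotation of GRCm38.p6. The 250 bases before each start site are shown because the 2 ligands share a receptor and a chromosomal neighbourhood but had different source cells. The Ccl22 window is chr8:94745434-94745683 (+) and the Ccl17 window is chr8:94810203-94810452 (+). Capitals mark a match to TTCNNNNGAA, the palindrome bound by STAT6, a factor downstream of interleukin-4.

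Ccl22: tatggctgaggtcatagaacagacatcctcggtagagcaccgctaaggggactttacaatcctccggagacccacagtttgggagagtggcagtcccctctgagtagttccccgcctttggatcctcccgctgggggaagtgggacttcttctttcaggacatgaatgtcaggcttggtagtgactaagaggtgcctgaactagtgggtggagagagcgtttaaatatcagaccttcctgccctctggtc

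Ccl17: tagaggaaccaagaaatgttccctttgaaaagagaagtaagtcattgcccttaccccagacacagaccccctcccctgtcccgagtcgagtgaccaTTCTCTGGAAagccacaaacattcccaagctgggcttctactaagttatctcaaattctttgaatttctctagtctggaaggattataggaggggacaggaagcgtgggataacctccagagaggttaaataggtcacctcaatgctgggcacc

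The Ccl17 window holds 1 such match, TTCTCTGGAA, that starts 154 bases before the start site, and the Ccl22 window holds none. The same letters occur, on either strand, in 1923 of 32851 RefSeq promoter windows (5.85%). The kappa-B motif bound by NF-kappaB factors, searched on both strands, matched neither window and matched 7.25% of all windows. These are matches of letters, not measured binding sites.

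Mature dendritic-like cells carried the highest levels of both ligands among the named classes of 30 or more cells in every library. Ccl17 stood at 1307 CPM in PBS, 1723 in PD1+CTLA4, 3406 in PD1+CD40, 3952 in CD40+CTLA4 and 1803 in Triplet. Ccl22 stood at 2376 CPM in PBS, 1480 in PD1+CTLA4, 4388 in PD1+CD40, 5051 in CD40+CTLA4 and 2898 in Triplet. Both ligands were highest in the 2 doublets that contained anti-CD40. The plot of levels by class places these values beside those of selected other classes.

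**Figure D1:**
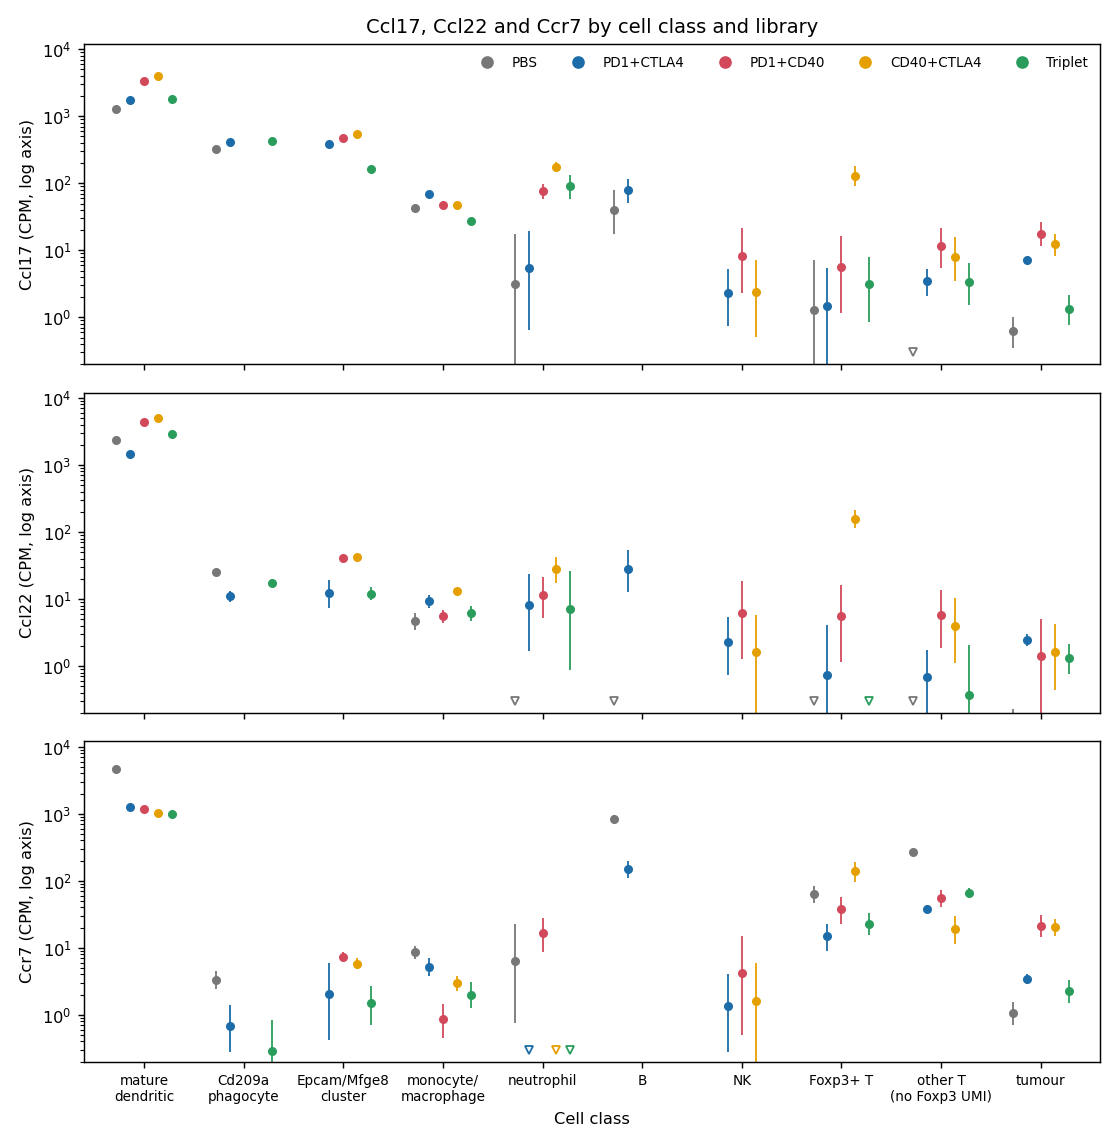
Level of Ccl17, Ccl22 and Ccr7 (CPM, log axis) in selected cell classes of 30 or more cells, 1 point per library, with open triangles at the lower edge for classes with no UMI of the gene. T cells are split by the presence of a Foxp3 UMI. Mature dendritic-like cells hold the highest Ccl17 (1307 to 3952 CPM), Ccl22 (1480 to 5051 CPM) and Ccr7 (981 to 4709 CPM).

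Against PD1+CTLA4, the Ccl22 level of mature dendritic-like cells was 2.96 times as high in PD1+CD40 (95% interval 2.82 to 3.12), 3.41 times in CD40+CTLA4 (3.25 to 3.59) and 1.96 times in Triplet (1.83 to 2.10). Ccl17 was 1.98 times as high in PD1+CD40 (1.88 to 2.08), 2.29 times in CD40+CTLA4 (2.18 to 2.41) and 1.05 times in Triplet (0.97 to 1.13). On the log2(CPM + 5) scale, differences of 1 or more in either direction were held by 6.95% of the genes with 20 or more UMIs in PD1+CD40 against PD1+CTLA4, 7.77% in CD40+CTLA4 and 6.6% in Triplet. By that rule Ccl22 passed in both anti-CD40 doublets (1.56 and 1.77), Ccl17 in CD40+CTLA4 alone (1.20, against 0.98 in PD1+CD40), and neither in Triplet (0.97 for Ccl22 and 0.07 for Ccl17). The 2 values just short of 1 passed under other settings: Ccl17 in PD1+CD40 was 1.09 with TMM scaling, and Ccl22 in Triplet was 1.08 with up to 20% mitochondrial UMIs allowed. The median of all genes was -0.08, -0.07 and -0.01. Triplet was also set against the doublets that share its anti-CD40. Ccl17 in Triplet was 0.53 times its PD1+CD40 level and 0.46 times its CD40+CTLA4 level, and Ccl22 was 0.66 and 0.57 times those levels. In those comparisons, 5.28% and 5.67% of genes passed 2-fold. The Triplet sum rests on 45 cells. A gate on 4 of the 18 markers in place of the cluster, added after seeing the data, took 677 to 2323 cells per library and so a broader population. In it the Ccl22 difference of Triplet from PD1+CTLA4 turned to -1.36, and those of PD1+CD40 and CD40+CTLA4 fell to 0.42 and 0.23. Ccl17 under the gate was -1.12 in Triplet, past 2-fold lower, 0.12 in PD1+CD40 and 0.072 in CD40+CTLA4, where its call was lost.

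Other readouts differed between the same sums. The 14 monocyte and macrophage markers summed to 369 CPM in PBS, 1987 in PD1+CTLA4, 2878 in PD1+CD40, 2663 in CD40+CTLA4 and 4383 in Triplet. T cell markers summed to 42.5 to 122 CPM and tumour markers to 21.2 to 70.4 CPM in this cluster. The part of these other transcripts in the ligand differences was not tested. In a sum over cells, more RNA of a gene per cell and more cells carrying it cannot be told apart, so the values per cell follow.

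Cell by cell, the median Ccl22 level was 1526 CPM in PBS, 911 in PD1+CTLA4, 3473 in PD1+CD40, 4019 in CD40+CTLA4 and 2106 in Triplet. The median Ccl17 level was 648, 852, 1546, 1750 and 1547 CPM in the same order. In Triplet the median Ccl17 cell was therefore close to that of the anti-CD40 doublets although the summed level was near that of PD1+CTLA4. The 10% of cells with the most Ccl17 held 47.7%, 44.4%, 49.5%, 52.3% and 31.2% of its UMIs, and those with the most Ccl22 held 40.9%, 40.1%, 31.7%, 33.7% and 35.1%. Ccl17 was thus the more unevenly spread ligand in 4 libraries and Ccl22 in Triplet. For Ccr7 the share held by the top 10% of cells was 19.8% to 25.7%.

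**Figure D2:**
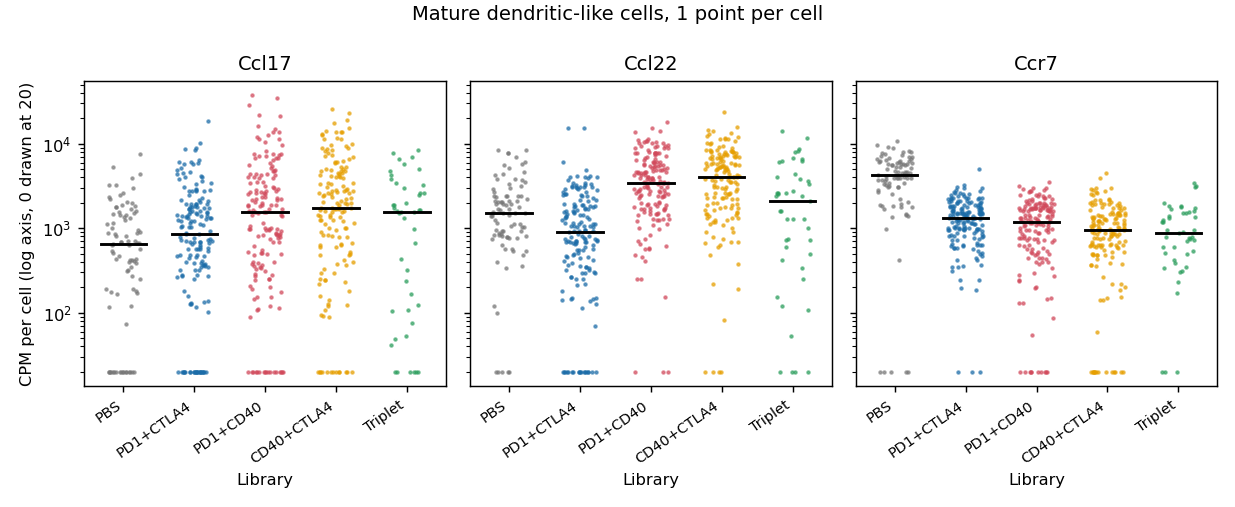
Level of Ccl17, Ccl22 and Ccr7 in each mature dendritic-like cell (CPM of the cell, log axis), by library, with the median of each library marked. The median Ccl22 cell lies at 911 CPM in PD1+CTLA4 and 4019 CPM in CD40+CTLA4, and the median Ccr7 cell at 4310 CPM in PBS and 877 to 1315 CPM in the treated libraries.

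Most mature dendritic-like cells carried both ligands. At least 1 UMI of each was found in 71 of 88 cells in PBS (80.7%, exact Clopper-Pearson interval 70.9% to 88.3%), 130 of 164 in PD1+CTLA4 (79.3%), 142 of 160 in PD1+CD40 (88.8%), 140 of 155 in CD40+CTLA4 (90.3%) and 37 of 45 in Triplet (82.2%, 67.9% to 92.0%). Cells with Ccl22 and no Ccl17 made up 7.1% to 13.6%, and cells with Ccl17 and no Ccl22 made up 0% to 5.49%. UMIs of both ligands and of Ccr7 were present in 78.7% to 83.8% of the cells.

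Free RNA gives a background for such shares. Tumour-like cells, which are not a known source, had a Ccl17 UMI in 1.7% to 18.7% of cells across the libraries. With every cell thinned to 1000 UMIs this share was 0% to 2.7% in tumour-like cells and 51.8% to 67.5% in mature dendritic-like cells. Neutrophil-like cells, thinned likewise, had a Ccl17 UMI in 0% to 3.3% and a Ccl22 UMI in 0% to 1.2% of cells. Thinned shares in mature dendritic-like cells were 61.0% to 89.9% for Ccl22 and 53.3% to 92.8% for Ccr7.

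The 2 ligands had different other sources. Phagocytes with Cd209a transcripts expressed Ccl17 at 325 CPM in PBS, 411 in PD1+CTLA4 and 435 in Triplet, and Ccl22 at 25.3, 10.97 and 17.4 CPM. PD1+CD40 and CD40+CTLA4 held 28 and 18 cells of this kind. The cluster group matched 6 of 10 type 2 dendritic markers but had Csf1r at 269 CPM and Flt3, the receptor for the dendritic growth factor, at 0.97 CPM, so it is called by its gene and not as a dendritic class. Within it, the level was highest in a subcluster led by Plet1, Cd209d and Cd209a, at 860 CPM (816 to 905) over all libraries.

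A second group was led by Epcam, an adhesion molecule, and Mfge8, which bridges dying cells to phagocytes. Over all libraries it had Epcam at 233 CPM and Mfge8 at 314 CPM, against 163 and 58.5 CPM in the Cd209a phagocytes. Cd209a was at 2.14 against 115 CPM, while Csf1r (203 against 269 CPM) and C1qa (1380 against 1410 CPM) differed less. Epcam was also among the leading genes of the Plet1 subcluster. The second group expressed Ccl17 at 385 CPM in PD1+CTLA4 (178 cells), 470 in PD1+CD40 (1702 cells), 550 in CD40+CTLA4 (1485 cells) and 164 in Triplet (407 cells). PBS held 10 of these cells. Ccl22 there was 12.3, 40.99, 42.8 and 12.0 CPM in the same order. Both ligands were thus higher in the anti-CD40 doublets than in Triplet: Ccl17 in Triplet was 0.35 times its PD1+CD40 level (0.33 to 0.37) and 0.30 times its CD40+CTLA4 level (0.28 to 0.32), and Ccl22 was 0.29 and 0.28 times. Past 2-fold in these comparisons were 0.239% and 0.182% of genes. Against PD1+CTLA4, Ccl17 passed in Triplet (0.43 times, 0.39 to 0.47, beside 1.95% of genes) and not in the doublets (1.22 and 1.43 times), while Ccl22 passed in the doublets (3.34 and 3.49 times, beside 1.62% and 2.06% of genes) and not in Triplet (0.98 times). In the Cd209a phagocytes, Ccl17 differed little between Triplet and PD1+CTLA4 (1.06 times, 1.01 to 1.10) and Ccl22 was 1.59 times as high in Triplet (1.25 to 2.03), where 0.257% of genes passed 2-fold. Monocyte/macrophage-like cells were far lower, at 27.3 to 68.2 CPM of Ccl17 and 4.63 to 13.0 CPM of Ccl22.

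The ratio of Ccl17 UMIs to Ccl22 UMIs, read between classes rather than as a level of one gene over the other, separated these sources. It was 0.55 in PBS, 1.16 in PD1+CTLA4, 0.78 in PD1+CD40, 0.78 in CD40+CTLA4 and 0.62 in Triplet for mature dendritic-like cells. In the Cd209a phagocytes it was 12.8 in PBS, 37.4 in PD1+CTLA4 and 24.9 in Triplet. The Epcam and Mfge8 group had 31.3, 11.5, 12.8 and 13.7 in the 4 treated libraries. The ratios of mature dendritic-like cells lay below those of both phagocyte groups wherever these had 30 or more cells.

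As a share of all Ccl22 UMIs in a library, mature dendritic-like cells held 82.6% in PBS, 75.8% in PD1+CTLA4, 69.8% in PD1+CD40, 64.5% in CD40+CTLA4 and 75.9% in Triplet, from 0.95% to 2.01% of the cells. Of Ccl17 UMIs they held 17.2%, 23.9%, 24.0%, 22.6% and 11.3%. Cd209a phagocytes held 65.3% of Ccl17 in PBS, 44.0% in PD1+CTLA4 and 56.6% in Triplet, and the Epcam and Mfge8 group held 42.4% in PD1+CD40 and 39.9% in CD40+CTLA4. The largest share of Ccl22 thus lay in 1 small cluster in every library, and the largest share of Ccl17 lay in 1 of the 2 phagocyte groups. The marker gate, which takes in more cells, held a median over libraries of 57.0% of Ccl17 against 22.6% for the cluster. Unnamed clusters held 9.7% to 31.3% of Ccl17 and 1.85% to 25.2% of Ccl22. The shallow cluster of 4377 cells with mature dendritic markers was among them, mostly in the anti-CD40 doublets. Of the UMIs in named clusters alone, mature dendritic-like cells held 80.4% to 87.8% of Ccl22 and 13.0% to 33.3% of Ccl17. These shares depend on the sorted proportions, and the 2 phagocyte groups were held by different libraries.

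**Figure D3:**
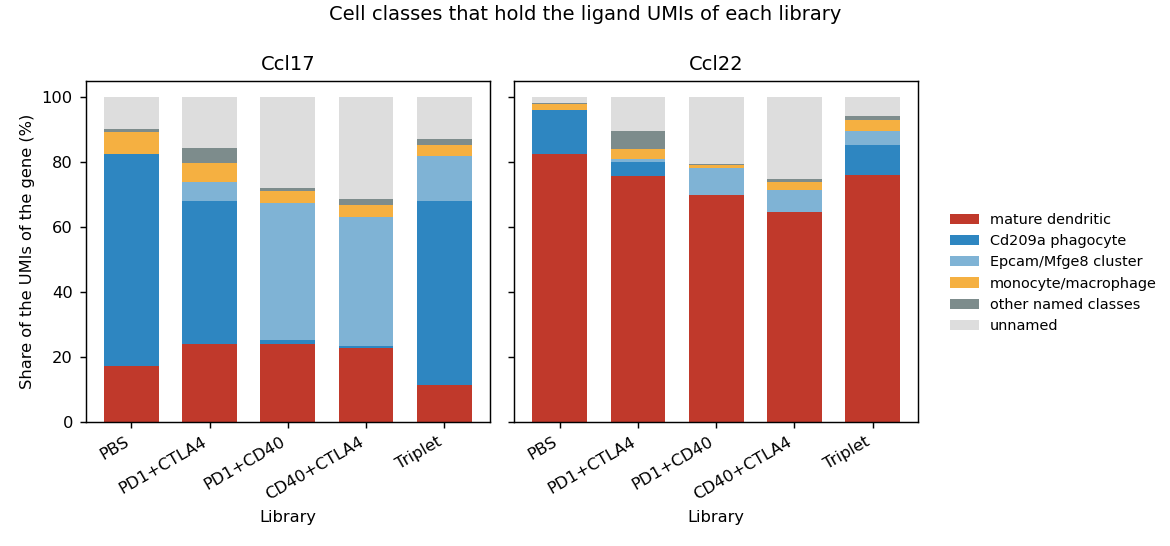
Share of each library's Ccl17 and Ccl22 UMIs held by each cell class (percent of all UMIs of the gene in kept cells, stacked to 100). Mature dendritic-like cells hold 64.5% to 82.6% of Ccl22 and 11.3% to 24.0% of Ccl17.

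Ccr7 was the third member at a high level in mature dendritic-like cells, at 4709 CPM in PBS, 1276 in PD1+CTLA4, 1154 in PD1+CD40, 1015 in CD40+CTLA4 and 981 in Triplet. PBS lay above the 4 treated libraries, which lay close together. Against PD1+CTLA4, Ccr7 was 0.90 times as high in PD1+CD40 (0.85 to 0.97), 0.80 times in CD40+CTLA4 (0.74 to 0.85) and 0.77 times in Triplet (0.69 to 0.85), below 2-fold in each. Under the marker gate all 3 differences passed 2-fold lower, at -1.08, -1.69 and -2.56 on the log2 scale. Triplet and CD40+CTLA4 differed by a ratio of 0.97 with an interval that holds 1 (0.87 to 1.07). The ligands and Ccr7 of the same cells thus differed in size between PD1+CTLA4 and the anti-CD40 doublets: more than 2.9 times as much Ccl22, and less Ccr7.

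Of all Ccr7 UMIs, mature dendritic-like cells held 83.7%, 71.9%, 68.6%, 66.4% and 59.3% in the same order of libraries. B-like cells came next where enough were present, at 819 CPM in PBS (77 cells) and 148 in PD1+CTLA4 (139 cells). The other 2 receptors were at or near 0 in mature dendritic-like cells: Ccr4 had 1 UMI in PD1+CD40 and none elsewhere, and Ccr8 had 2 UMIs in PBS and none elsewhere. A count of 0 allows a level of up to 2.28 CPM in PD1+CTLA4 and 6.004 CPM in Triplet.

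Other genes of the axis were read in the same cells. Cd40, the target of the agonist antibody and a receptor that matures dendritic cells, was at 361 CPM in PBS, 168 in PD1+CTLA4, 406 in PD1+CD40, 596 in CD40+CTLA4 and 410 in Triplet. It passed 2-fold against PD1+CTLA4 in all 3 libraries with anti-CD40. Of the 6 measured genes among 13 inducers and their receptors, no other passed 2-fold higher in these comparisons. Csf2rb, a chain of the GM-CSF receptor, passed 2-fold lower in CD40+CTLA4 (160 against 415 CPM).

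All 11 transcription factors of dendritic maturation were measured, and 0 passed 2-fold in any of the 5 comparisons among treated libraries. At the shares of all genes that passed, 5.28% to 7.77%, fewer than 1 of 11 would pass, so this count is near the background. Their median log2 difference against PD1+CTLA4 was -0.21 in Triplet, -0.27 in PD1+CD40 and -0.23 in CD40+CTLA4. Rel, an NF-kappaB subunit, ranged from 460 to 851 CPM, Irf8 from 395 to 624 CPM and Irf4, a factor of dendritic migration, from 29.7 to 47.1 CPM. Dpp4, the peptidase that trims Ccl22, was at 145 CPM in PD1+CTLA4 and 130 in Triplet but 26.9 in PD1+CD40 and 23.8 in CD40+CTLA4. Ccl8, the Ccr8 ligand, was at 105, 8.98, 31.0 and 130 CPM in PD1+CTLA4, PD1+CD40, CD40+CTLA4 and Triplet. Its level in monocyte/macrophage-like cells was 890 to 3658 CPM, and the part of macrophage RNA in the dendritic values was not tested. Gpr183, a receptor that positions dendritic cells, was past 2-fold higher in both anti-CD40 doublets (328 and 304 against 130 CPM), where Cxcr4, the Cxcl12 receptor, was past 2-fold lower (14.5 and 13.0 against 35.7 CPM). These were 2 of the 9 measured among 20 homing receptors. In Triplet against PD1+CTLA4, 1 of 8 measured passed: Ccr2, a receptor of monocytes, was lower (26.0 against 75.1 CPM).

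The Ccr7 ligands were almost absent from the classes examined. Ccl19 reached at most 0.72 CPM in any of them, and Ccl21a and Ccl21b had no UMI. No fibroblast or endothelial class was among them, and a cluster of 2195 cells with fibroblast and tumour markers was left unnamed. These values therefore do not cover the whole tumour. The Ccr8 ligand Ccl1 was made by T cells without Foxp3, at 397 CPM in PBS, 550 in PD1+CTLA4, 651 in PD1+CD40, 133 in CD40+CTLA4 and 708 in Triplet.

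The receptors were compared within each library between T cells with 1 or more Foxp3 UMIs and all other T cells. Foxp3 is the master factor of regulatory T cells, and at this depth a regulatory cell may show no Foxp3 UMI. The second group therefore still holds regulatory cells. There were 172, 385, 133, 75 and 307 Foxp3-positive cells in PBS, PD1+CTLA4, PD1+CD40, CD40+CTLA4 and Triplet, and 379, 1682, 289, 293 and 815 others. Regulatory T-like clusters held 195, 770, 262, 175 and 539 cells in the same order, more than the Foxp3-positive cells of each library. Part of these clusters thus lay among the others. The test was edgeR's quasi-likelihood test on the 2 sums of each library with the library as a block. The 5 libraries stood as samples, each pooled from its own mice, so its p-values measure the spread of the difference between libraries of different treatment. Of 9205 genes, 593 (6.44%) were higher and 683 (7.42%) lower in Foxp3-positive cells at an adjusted p under 0.05.

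Ccr8 rose in Foxp3-positive cells. Its level was 241 against 79.2 CPM in PBS, 15.6 against 11.2 in PD1+CTLA4, 26.1 against 18.5 in PD1+CD40, 31.7 against 21.2 in CD40+CTLA4 and 29.2 against 13.4 in Triplet. It was higher in 5 of 5 libraries, by ratios of 1.39 to 3.05. The interval of the ratio held 1 in PD1+CTLA4 (0.81 to 2.31), PD1+CD40 (0.64 to 3.10) and CD40+CTLA4 (0.57 to 3.52). It lay above 1 in PBS (2.37 to 3.94) and Triplet (1.34 to 3.54). The log2 difference of Ccr8 over the libraries was 1.01 with SE 0.18 (edgeR, Benjamini-Hochberg adjusted p = 6.24e-04). Without PBS, the library with the widest gap, the difference was 0.63 and no longer passed (edgeR, adjusted p = 0.0646), and the call was also lost without the library block (1.26, adjusted p = 0.656). In edgeR it was lost as well with cells thinned to 1000 UMIs (0.47, adjusted p = 0.656), with cells of 1000 or more UMIs and 500 or more genes (0.59, adjusted p = 0.153) and with CD4 cells alone (0.93, adjusted p = 0.0777).

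Ccr7 was lower in Foxp3-positive cells in 4 of 5 libraries. It stood at 63.5 against 271 CPM in PBS, 14.9 against 37.8 in PD1+CTLA4, 37.3 against 55.4 in PD1+CD40, 139 against 19.1 in CD40+CTLA4 and 22.9 against 66.4 in Triplet. The log2 difference was -1.11 with SE 0.36, which passed narrowly (edgeR, adjusted p = 0.0453), and without CD40+CTLA4 it was -1.64 (adjusted p = 4.72e-05 in edgeR). The call was lost without PBS (-0.63), PD1+CTLA4 (-1.02), PD1+CD40 (-1.19) or Triplet (-0.90). It was also lost without the library block (-0.98, adjusted p = 0.770) and in DESeq2 (-0.83, adjusted p = 0.830). With edgeR under 6 other settings of scaling, filtering, clustering and cell choice it was -1.11 to -0.75 and also lost (adjusted p = 0.0504 to 0.467). The reversed direction in CD40+CTLA4 rests on 35 UMIs in 7 cells, of which 18 were in 1 cell. The same 75 cells held 40 Ccl22 UMIs, of which 35 were in 1 cell, and 33 Ccl17 UMIs in 3 cells. When the 70 of 4530 T cells with a UMI of Fscn1, Cacnb3 or Il4i1 were left out, a choice made after seeing the data, the Ccr7 level there was 78.1 against 19.8 CPM. The difference over the libraries was then -1.36 with SE 0.28 (edgeR, adjusted p = 0.00127), and that of Ccr8 was 1.01. Between regulatory T-like clusters and the other T clusters, a description since the clusters were cut from the same cells, Ccr7 was lower in 5 of 5 libraries (ratios of 0.18 to 0.76), CD40+CTLA4 included (33.8 against 48.1 CPM, 0.70, 0.35 to 1.32).

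Ccr4 showed no difference that passed the test. Foxp3-positive cells had 20.3 against 45.4 CPM in PBS, 21.6 against 17.1 in PD1+CTLA4, 11.2 against 10.4 in PD1+CD40, 19.8 against 11.1 in CD40+CTLA4 and 26.0 against 16.4 in Triplet. The level was higher in the 4 treated libraries and lower in PBS. The log2 difference was -0.01 with SE 0.25 (edgeR, adjusted p = 0.995), which leaves room for a change in either direction. Between regulatory T-like and other T clusters the Ccr4 ratio was 0.65 in PBS (0.37 to 1.09), 2.52 in PD1+CTLA4 (1.76 to 3.62), 1.36 in PD1+CD40 (0.43 to 4.65), 3.35 in CD40+CTLA4 (1.10 to 11.2) and 1.87 in Triplet (1.16 to 3.02). PBS again stood below the treated libraries, and 3 of the 4 treated intervals lay above 1.

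**Figure D4:**
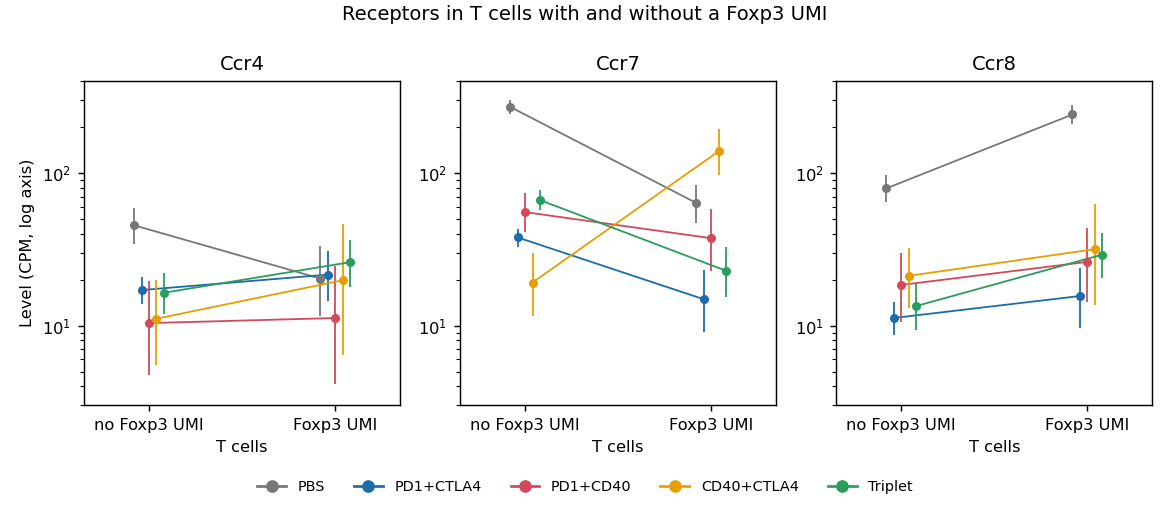
Level of Ccr4, Ccr7 and Ccr8 (CPM, log axis, exact Poisson 95% intervals) in T cells with and without a Foxp3 UMI, with a line joining the 2 sums of each library. Ccr8 is higher in Foxp3-positive cells in 5 of 5 libraries, Ccr7 is lower in 4 of 5, and Ccr4 goes both ways.

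Genes of the pathway lists were read in the same contrast, in which 13.9% of all genes tested were called. Of 14 other homing receptors tested, 2 rose, Itgae, which holds T cells in epithelium (log2 1.14), and its partner Itgb7 (0.55). Another 2 fell, Cxcr6, a receptor of effector T cells in tissue (-3.42), and Gpr183 (-1.06). Of the inducers and their receptors, 6 were tested: Il1rl1, the interleukin-33 receptor, rose (0.87), while Csf2, which encodes GM-CSF (-5.29), and Cd40lg, the ligand of Cd40 (-2.50), fell. The Ccr8 ligand Ccl1 fell (-4.20) among 2 other ligands tested, the chemerin-binding receptor Ccrl2 rose (1.10) among 2 scavenging genes tested, and Irf4 rose (1.03) among 10 transcription factors tested. The median of all genes tested was -0.00.

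Between treated libraries, most receptor differences in T cells lay within 2-fold. In Foxp3-positive cells, Ccr8 was 1.87 times as high in Triplet as in PD1+CTLA4 (1.06 to 3.36), short of 2-fold on the log2 scale at 0.73. Ccr4 was 1.21 times as high there, with an interval that holds 1 (0.71 to 2.06). Of all genes, 1.08% passed in that comparison. Ccr7 passed against PD1+CTLA4 in PD1+CD40 (2.51 times, 1.28 to 4.92, from 20 UMIs in each, beside 5.27% of genes) and in CD40+CTLA4 (9.32 times, 5.23 to 17.0, beside 7.32% of genes), the latter from the 7 cells described above. Ccr7 in Triplet was 0.16 times its CD40+CTLA4 level, which passed beside 6.46% of genes. No receptor passed between Triplet and PD1+CD40, where 2.97% of genes did.

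In T cells without Foxp3, Ccr7 was 1.76 times as high in Triplet as in PD1+CTLA4 (1.43 to 2.15) and 0.51 times as high in CD40+CTLA4 (0.30 to 0.81), both short of 2-fold on the log2 scale, beside 0.511% and 1.78% of genes that passed. Ccr7 was 3.47 times as high in Triplet as in CD40+CTLA4 (2.16 to 5.89), which passed beside 2.34% of genes. No receptor passed in PD1+CD40 against PD1+CTLA4 or in Triplet against PD1+CD40, where 2.92% and 2.04% of genes did. PBS had the highest Ccr8 in both T cell groups, and for that gene too treatment and library preparation or processing cannot be told apart.

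The T cells formed 14 clusters, of which 4 were regulatory T-like and 2 CD8-like, and the receptors divided them. Values over clusters are descriptions, since clusters were cut from the same cells. A regulatory T-like cluster led by Il1rl1 and Ikzf2 (974 cells, 5 of them from PBS) had Ccr4 at 45.1 CPM (36.9 to 54.7) and Ccr8 at 4.8 CPM (2.4 to 8.5). A second, led by Itgb8 and Il1r2 (629 cells), had the opposite order, with Ccr4 at 8.2 CPM (5.0 to 12.9) and Ccr8 at 40.7 CPM (32.9 to 49.8).

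This opposite pattern was present in each of the 4 treated libraries. In PD1+CTLA4, PD1+CD40, CD40+CTLA4 and Triplet, Ccr4 was 41.9, 51.2, 47.1 and 49.9 CPM in the Il1rl1 cluster and 14.4, 3.6, 11.9 and 4.9 CPM in the Itgb8 cluster. Ccr8 was 3.2, 0, 7.9 and 3.8 CPM in the Il1rl1 cluster and 34.6, 34.5, 39.8 and 50.5 CPM in the Itgb8 cluster. In the same order the Il1rl1 cluster held 526, 65, 71 and 307 cells and the Itgb8 cluster 187, 166, 77 and 198. The values of the smaller sums rest on few UMIs. The ranges of the 2 clusters did not overlap for either receptor, nor did they for 14.6% of all 9654 genes with 20 or more UMIs in these sums. A regulatory T-like cluster of PBS cells alone, led by Tigit (183 cells), had Ccr8 at 237 CPM and Ccr4 at 25.2 CPM.

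Outside the regulatory clusters, Ccr4 was at 41.9 CPM in a cluster led by Cd40lg, the helper T cell molecule (902 cells). Ccr7 was highest, at 255 CPM, in a cluster led by Igfbp4 and Lef1, the latter a factor of naive T cells (335 cells), where Ccr4 had no UMI and Ccr8 was at 1.3 CPM. A cluster of PBS cells (243 cells) had Ccr7 at 252 CPM. Ccr8 was also present in clusters with its ligand Ccl1 among the leading genes. It was at 55.3 CPM in a cluster led by Stfa3 and Ccl1 (124 cells). In a CD8-like cluster led by Ccl1 and Ifng (310 cells) it was at 28.1 CPM. Whether the same cells held both was not tested. CD8-like cells had little Ccr4, at 1.3 and 1.9 CPM.

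**Figure D5:**
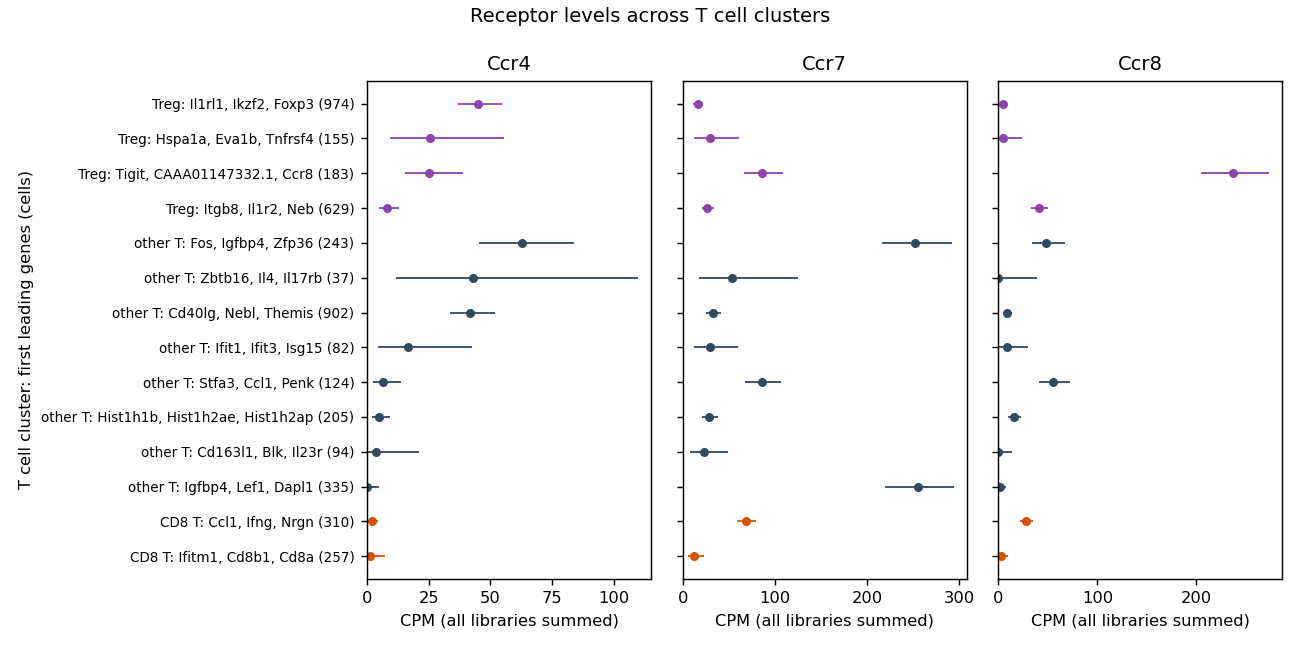
Level of Ccr4, Ccr7 and Ccr8 (CPM over all libraries, exact Poisson 95% intervals) in each of the 14 T cell clusters, labelled by leading genes. The Il1rl1 cluster has Ccr4 at 45.1 and Ccr8 at 4.8 CPM, the Itgb8 cluster has 8.2 and 40.7 CPM, and Ccr7 peaks at 255 CPM in the Igfbp4 and Lef1 cluster.

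Genes with the pattern most like each member were sought over 51 sums of a class in a library, in 14 classes, each gene centred within its library, among 7114 genes. These are Pearson correlations without a p, and sums of 1 library share its depth and free RNA. Ccl17 was most like H2-M2 (0.94), Plppr4 (0.92), Akap5 (0.92), Flrt3 (0.90) and Ikbkb (0.88). Ccl22 was most like Fscn1 (0.94), Adgrg6 (0.94), Nudt17 (0.93), Slco5a1 (0.93) and Arhgap28 (0.92), of which Fscn1 and Nudt17 were among the markers that named the mature dendritic-like cluster. Ccr7 had weaker neighbours, led by Sinhcaf, Slc4a8 and Tmem123 (each 0.87), then Ly75, an endocytic receptor of dendritic cells (0.86), and Birc2 (0.86). Tmem123 and Birc2 were also among the markers that named that cluster.

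The T cell receptors of the set had T cell genes as neighbours. Ccr4 was most like Tnfrsf25 (0.92), Acsbg1 (0.91), Trat1 (0.90), Izumo1r (0.89) and Cd4 (0.88). Ccr8 was most like Sit1 (0.92) and then Tigit, Cd5, Sdcbp2 and Ctla4 (each 0.91). Izumo1r and Ctla4 were among the markers that named the regulatory T-like clusters. Among the members themselves, Ccl17 and Ccl22 had 0.85, Ccr4 and Ccr8 had 0.81, Ccl22 and Ccr7 had 0.69, and Ccl17 and Ccr7 had 0.41.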

How the data were processed

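Single-cell RNA of 5 pooled tumour libraries was analysed from the deposited UMI counts per gene and barcode. Per the file headers, the authors used Cell Ranger 4 for PBS and Cell Ranger 7.1.0 for the others; mm9 is named in the submitters' processing notes, with no annotation version stated there or in the headers. UMI totals in cells passing the filter were 56161132 to 88692602 per library. A barcode was kept as a cell from 500 UMIs and 300 genes upwards, if mitochondrial UMIs did not exceed 10%. Scrublet called 22 (PBS), 3 (Triplet) and 0 (others) doublets, so it did not work in the larger libraries. Scanpy 1.11.5 clustered the cells on 2000 variable genes, 30 components and 15 neighbours (Leiden resolution 1), without the 5 genes.

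Clusters were named from marker lists, and the naming thresholds were revised after the levels per cluster had been seen; the Epcam and Mfge8 group was defined then. The members, gene lists and tests were chosen with earlier results of these data known. CPM are UMIs of a gene scaled to a common total over the summed cells; ratios have exact conditional Poisson intervals, shares of cells Clopper-Pearson intervals. Treatment differences used log2(CPM + 5), called at 2-fold among genes with 20 or more UMIs. Foxp3-positive and other T cells were compared with edgeR 4.0.16 (TMM, quasi-likelihood, library as block, Benjamini-Hochberg over all genes). On simulated data it called 100% of 4-fold and 77% of 2-fold changes and 7 of 9005 unchanged genes. The changed genes were drawn at random from all genes tested, with the same fold in every library. These shares therefore do not measure the power for the receptors, which had few UMIs and folds that differed between libraries. Named genes are the members, the list genes and, for each member, the 5 genes of highest correlation among those at 50 CPM or more in a sum. The alternatives were RLE, DESeq2 1.42.0, no block, other pseudocounts, filters, resolution, thinning, doublet removal, members kept in clustering, and leaving out each library. Promoters came from RefSeq GRCm38.p6; 4 of 5 genes matched.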

Additional observations from a re-analysis of the deposited data

Results flagged for a closer look

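In barcodes of 1 to 100 UMIs, which were not used as cells, the CD40+CTLA4 library held Ccl17 at 253 CPM (1598 UMIs) and Ccl22 at 64.8 CPM (409 UMIs), against 108 and 16.0 CPM in PBS; both lie above the untreated library. These barcodes mark RNA outside cells or in fragments, and they were listed for PBS and CD40+CTLA4 among the libraries read here. Ccr7 was at 11.2 CPM in CD40+CTLA4 and 19.5 in PBS, and Ccr8 at 0.16 and 2.71 CPM. The 2 libraries differ in preparation or processing, so the difference cannot be told apart from treatment.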

How the results depend on the processing

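Of 93 alternatives for the Foxp3 comparison, 65 kept the side of the threshold or, for counts, stayed within 1.5 times; 150 treatment values moved by more than counting error in 49 and reversed in 1. Ccr7 (-1.11, edgeR adjusted p = 0.0453) lost its call with RLE (-1.11, adjusted p = 0.0504), DESeq2 (-0.83, 0.830), no replicate block (-0.98, 0.770), CD4 cells alone (-1.03, 0.0808), 1000 UMIs and 500 genes (-0.75, 0.467), 20% mitochondrial UMIs (-0.96, 0.138), the members kept in clustering (-1.04, 0.0676) and top doublet scores removed (-0.90, 0.104); leaving out 1 library gave -1.64 (without CD40+CTLA4, still called) to -0.63. Ccr8 lost its call with no replicate block (1.26, adjusted p = 0.656), thinning to 1000 UMIs (0.47, 0.656), CD4 cells alone (0.93, 0.0777) and 1000 UMIs (0.59, 0.153), and without PBS; leaving out 1 library gave 0.63 to 1.15. The block is the library, which pairs its own 2 sums. Genes called higher (593) and lower (683) were 289 and 391 with DESeq2, 33 and 95 with no replicate block, 141 and 249 thinned, 248 and 335 with CD4 cells, 185 and 333 at 1000 UMIs, and 368 to 542 (higher) and 480 to 612 (lower) when 1 library was left out, the fewest higher without Triplet. The median share held by mature dendritic-like cells was 28.3% (Ccl17) and 84.6% (Ccl22) without unnamed clusters and 57.0% and 83.4% with the marker gate, against 22.6% and 75.8%. Cells with both ligands were 87.5% (median) with the members in clustering and with top doublet scores removed. Under the gate, log2 differences from PD1+CTLA4 for Ccl17, Ccl22 and Ccr7 were -1.12, -1.36 and -2.56 for Triplet, 0.12, 0.42 and -1.08 for PD1+CD40, then 0.072, 0.23 and -1.69 for CD40+CTLA4. With TMM they were 1.09, 1.67 and -0.039 for PD1+CD40, then 1.31, 1.88 and -0.22 for CD40+CTLA4. For Ccl17, means per cell gave 0.34 (Triplet) and 1.08 (PD1+CD40), 1000 UMIs gave 0.25 (Triplet), and top doublet scores removed gave 0.91 (PD1+CD40) and 1.07 (CD40+CTLA4). For Ccl22, Triplet gave 1.08 with 20% mitochondrial UMIs and with the members in clustering, and CD40+CTLA4 gave 1.67 with top doublet scores removed. The gate and DESeq2 change the cells or the model; the cause of the other moves was not tested. Depth limits Ccr4 and Ccr8, with 5 to 37 UMIs in Foxp3-positive cells of a treated library.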
